A study of Rattus norvegicus with 16 samples.

Results

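The axon guidance ligands and receptors were 63 genes, taken by symbol from the 26583 gene names on the rat array. They comprised 20 semaphorins, 8 plexins, 2 neuropilins, 8 ephrins, 11 Eph receptors, 3 Slits, 4 Robo receptors, 3 netrins and 4 netrin receptors of the Unc5 and Dcc families. They were measured by 81 of 30367 probes, and each gene was given the value of its probe with the highest mean intensity over all arrays. The samples were hippocampi of 16 adult male Sprague-Dawley rats, each on 1 single-colour array, collected at 24 h. The groups were Naive (n = 3, neither injured nor treated), Sham (n = 2, surgery and anesthesia without injury), TBI (n = 3, parasagittal fluid percussion injury) and the same injury followed by a drug. The drug groups were TBI+PMI (n = 3, PMI-006 at 250 mg/kg by gavage), TBI+JM6 (n = 3, JM6 at 400 mg/kg by gavage) and TBI+E33 (n = 2, estradiol at 33 µg/kg, subcutaneous by the sample labels and intraperitoneal by the study's methods). The comparisons ask how injury, and a drug given after it, changed the RNA of these genes. Because the RNA came from whole tissue, fewer cells of a type and less RNA per cell cannot be told apart.

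Guidance cues steer growing axons by attraction or repulsion, and many are still made in the adult brain, where they act on synapses, spines and blood vessels. Semaphorins signal through plexins, and most of the secreted ones need a neuropilin as the ligand-binding partner. Ephrins stay on the cell surface and bind Eph receptor tyrosine kinases, Slits bind Robo receptors, and netrins attract through Dcc and repel through Unc5 receptors. In the hippocampus these pathways are known for their part in mossy fibre growth and in the upkeep of dendritic spines.

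Values are log2 signals, the log2 of a probe's intensity over the 75th percentile of the probes well above background on its array, so that 0 is that percentile and a difference of 1 is a doubling. Of the 63 genes, 60 were tested, and Efna3, Efna5 and Efnb2 were too dim in every group. A gene was called at a limma adjusted p under 0.05 over all tested probes. The p-values weigh a difference against the spread between rats within groups, pooled over all 6 groups and so over both scan sessions. All Naive, Sham and TBI arrays were scanned in a first session and all drug arrays in a second, so drug and session cannot be told apart. Members well above background numbered 41 to 52 on arrays of the first session and 54 to 62 on those of the second, and for all probes the numbers were 16282 to 18245 and 20259 to 24984. In the first session Naive 1 and 2 and both Sham arrays shared a slide, as did Naive 3 and the TBI arrays. In the second, the TBI+PMI arrays and TBI+JM6 1 shared a slide, as did TBI+JM6 2 and 3 and the TBI+E33 arrays. Of 8 markers of the hippocampal CA fields at most 1 was below background in any group, while the dentate gyrus markers Tdo2 and Lct were below it in all groups and Prox1 in Sham and TBI rats. The summed signal of 10 choroid plexus genes, in units of the 75th percentile, was 81.1 on Naive 2, 128.0 on Sham 1 and 170.0 on TBI+PMI 1, and 1.07 to 9.6 on the others.

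**Figure D1:**
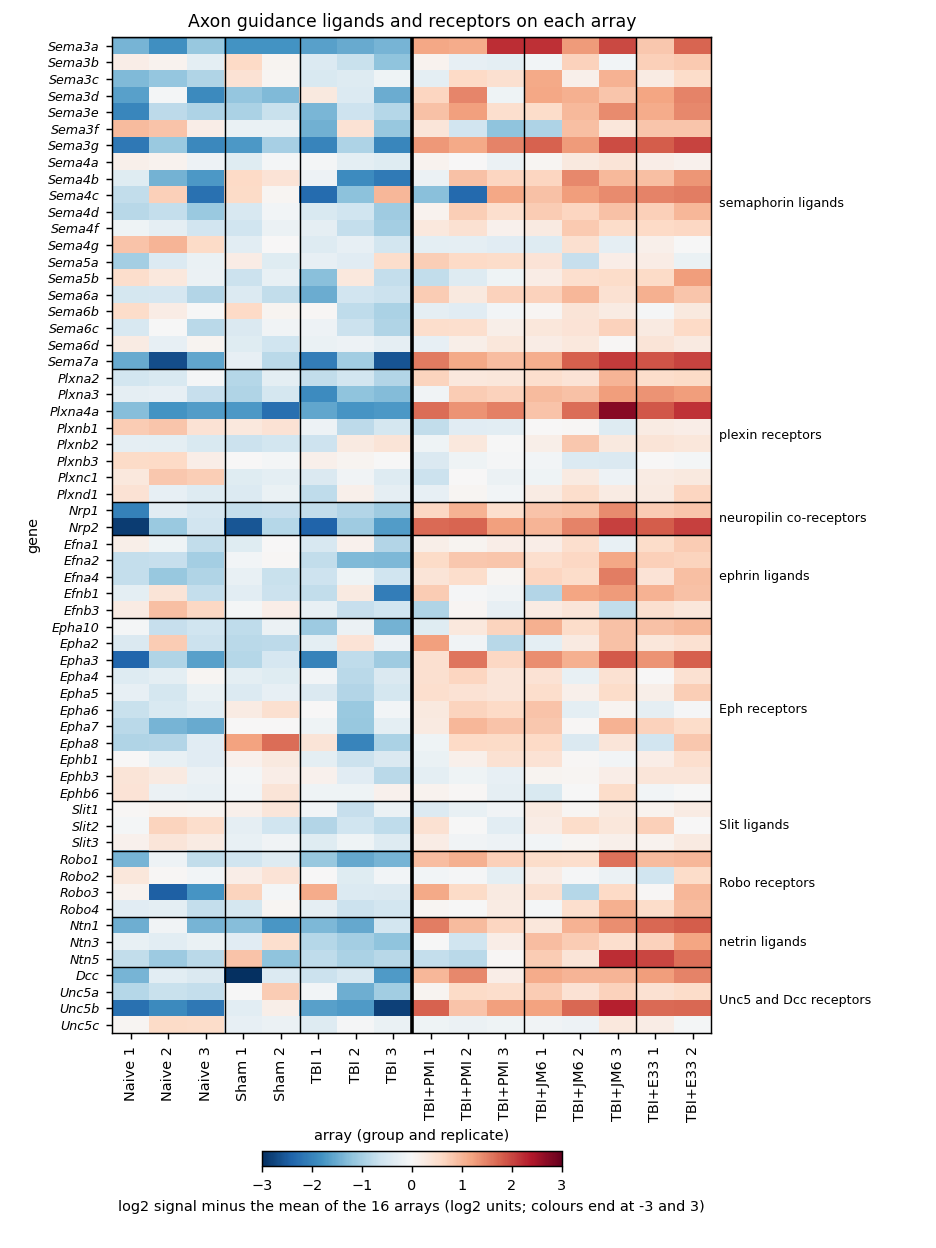
Log2 signal of the 60 tested genes (rows, grouped by family) on each of the 16 arrays (columns, by group and replicate), shown as the difference from the gene's mean over all arrays, with red for higher and blue for lower. The thick line separates the 2 scan sessions: Sema3a, Sema3g, Sema7a, Plxna4a, Nrp2 and Unc5b are blue on nearly all arrays to its left and red on all arrays to its right, and Epha8 is highest on the Sham arrays.

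The member with the highest mean intensity was taken to describe each family, without setting one gene's level against another's. Sema6b, a membrane-bound semaphorin, had log2 signals of 1.72, 1.39 and 1.16 in Naive, 1.77 and 1.25 in Sham and 1.21, 0.40 and 0.23 in TBI rats, and TBI 2 and 3 were the lowest of the 16 arrays. Epha4, an Eph receptor known for its control of dendritic spines, was at 0.69 ± 0.23 in Naive, 0.46 ± 0.37 in TBI and 1.40 ± 0.15 in TBI+PMI rats (mean ± SD, n = 3 each). Efnb3, a transmembrane ephrin, was at 0.39, 1.05 and 0.78 in Naive, 0.09 and 0.36 in Sham and -0.07, -0.55 and -0.44 in TBI rats. Every TBI array was below every Naive and Sham array for Efnb3, although the limma difference was not called (TBI vs. Naive -1.09 ± 0.31 SE, adjusted p = 0.0649; TBI vs. Sham -0.58 ± 0.35 SE, adjusted p = 0.317). Slit1, a repulsive Slit of neurons, was at -0.10 ± 0.04 (SD, n = 3) in Naive rats and, in TBI rats, at -0.49 ± 0.33 (SD, n = 3), and Robo2, a Slit receptor, at -1.46 ± 0.21 and -1.69 ± 0.19 (SD, n = 3 each). Neither was called among Naive, Sham and TBI rats by these probes. The brightest plexin, neuropilin, netrin and netrin receptor probes were those of Plxnb1, Nrp2, Ntn3 and Unc5a, which are described with the comparisons.

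In TBI compared with Sham rats, 8 of the 60 tested members were called lower and 0 higher, beside 6.49% and 2.93% of all tested probes (9.41% in both directions). The members' median log2 fold change was -0.291 against -0.034 over all probes, and 15 members had an unadjusted p under 0.05 (26.0% of all probes). The called members were the semaphorins Sema4b and Sema3b, the plexin Plxnb1, the ephrin Efna2, the Eph receptor Epha8, the netrin Ntn3 and the netrin receptors Unc5a and Unc5b. Probes were tested if well above background on all arrays of some group. Among the groups of this session, Sema4b, Ntn3 and Unc5b met this only in Sham, where they were high. They also met it in TBI+JM6 rats, but their p-values here carry this limit. No neuropilin, Slit or Robo passed by the probe that gives its value. The other tested probe of Robo2 was called lower (-1.01, limma adjusted p = 0.0429). In all 8 called members the TBI and Sham arrays did not overlap. As the 8 were picked by their calls, this adds no support, and the share of all probes without overlap was not counted.

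Among the ligands, Sema4b, a membrane semaphorin of the synapse, had log2 signals of -6.33, -7.38 and -7.68 in Naive, -5.38 and -5.56 in Sham and -6.12, -7.87 and -8.10 in TBI rats. It was not well above background on any TBI or Naive array, so its fold is a bound, taken against the dimmest probes still well above background on each TBI array or its own signal where that was higher. It was at least 1.41-fold lower in TBI than in Sham rats (fitted log2 difference -1.89 ± 0.55 SE, limma adjusted p = 0.0489). Efna2, a GPI-anchored ephrin, had -3.57 and -3.44 in Sham and -4.22, -4.81 and -4.84 in TBI rats, 2.17-fold lower in TBI (-1.12 ± 0.24 SE, adjusted p = 0.0159), and the Naive arrays, at -4.21, -4.17 and -4.50, overlapped with those of TBI. Ntn3 had -5.42 and -4.60 in Sham and -5.94, -6.11 and -6.29 in TBI rats and was not well above background on any TBI array, at least 1.93-fold lower (-1.11 ± 0.28 SE, adjusted p = 0.0304). Sema3b, a secreted semaphorin, fell from -3.36 ± 0.37 (SD, n = 2) to -4.45 ± 0.40 (SD, n = 3; limma -1.09 ± 0.29 SE, adjusted p = 0.0374).

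Among the receptors, Epha8, which binds GPI-anchored ephrins, had log2 signals of -2.60, -2.57 and -2.03 in Naive, -0.49 and -0.03 in Sham and -1.31, -3.69 and -2.64 in TBI rats. It was 4.87-fold lower in TBI than in Sham rats (-2.28 ± 0.59 SE, adjusted p = 0.0323), with the Sham arrays apart from the others and the Naive arrays within the range of TBI. Unc5b, a repulsive netrin receptor also known in blood vessels, had -7.06, -6.73 and -6.99 in Naive, -5.15 and -4.66 in Sham and -6.46, -6.53 and -7.64 in TBI rats, and only the Sham arrays of this session were well above background, at least 2.09-fold over TBI (-1.97 ± 0.39 SE, adjusted p = 0.0134). Unc5a, its neuronal relative, was at -2.10, -1.91 and -1.96 in Naive, -1.25 and -0.47 in Sham and -1.32, -2.72 and -2.29 in TBI rats (-1.25 ± 0.34 SE, adjusted p = 0.0401), and TBI 1 lay just below Sham 1. Plxnb1, the receptor of Sema4d, fell from -0.42 and -0.29 in Sham to -0.88, -1.51 and -1.26 in TBI rats, a 1.82-fold difference (-0.86 ± 0.22 SE, adjusted p = 0.0322), and was the one member of the 8 also called against Naive.

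**Figure D2:**
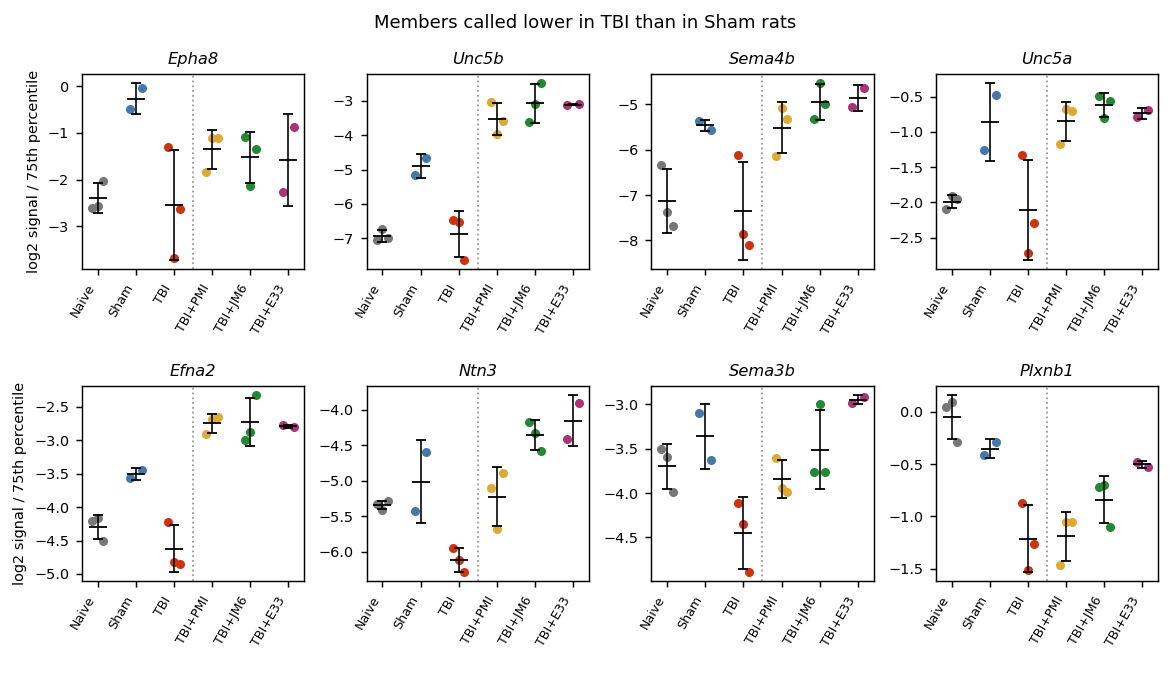
Log2 signal over the 75th percentile of the 8 members called lower in TBI than in Sham rats, by group, with a point for each array and the mean with its SD in black. The dotted line separates the scan sessions. In each panel the 3 TBI arrays lie below the 2 Sham arrays, and for Epha8, Unc5b, Sema4b, Unc5a and Efna2 the Naive arrays also lie below those of Sham.

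The count rested on few arrays. It was 1 without Sham 1, 0 by limma without Sham 2 (11 at an unadjusted p under 0.05), 2 without TBI 2, 1 without TBI 3 and 11 without TBI 1, and all 8 differences stayed negative in each of these fits. Under quantile normalization 2 were called, Unc5b and Efna2 (-1.77 and -0.90), beside 4.25% of all probes lower and 3.73% higher (7.97% in all). With normexp background correction none was called (5 at an unadjusted p under 0.05), and Unc5b, Sema4b and Ntn3 turned to 0.01, 0.33 and 0.26. No slide held both groups, and with the slide as a block, which sets each group against the Naive arrays beside it, the 8 differences kept their sign and none was called (5 members at an unadjusted p under 0.05).

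Markers of other cells moved with this comparison. The summed choroid plexus signal was 7.18 to 128.0 in Sham and 1.07 to 4.89 in TBI rats, where 5 of the 10 markers (Kl, Clic6, Aqp1, Prlr and Slc4a5) were below background, and 0 of the 8 tested ones were called. Without the 3 arrays high in these genes, with 1 Sham array left, no member was called (10 at an unadjusted p under 0.05), and the 8 differences ranged from -2.52 for Epha8 to -0.83 for Sema3b. Of the 10 oligodendrocyte genes 4 were called lower in TBI than in Sham rats (summed signal 59.3 to 117.0 against 118.0 to 124.0), and of 5 tested dentate gyrus genes 1 (0.483 to 0.973 against 2.24 to 2.31). Of 11 neuronal genes 2 were called lower (summed signal 35.1 to 42.8 against 47.1 to 55.7), and of 8 tested meningeal and fibroblast genes 1 (1.1 to 1.16 against 3.35 to 6.17). Of 9 tested leukocyte genes 3 were called higher (1.69 to 7.65 against 1.26 to 1.71), and 3 of the 12 on the array were below background in TBI and 5 in Sham rats. The part of these cells in the members' differences was not tested.

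In TBI compared with Naive rats 5 of 60 members were called lower and 0 higher, beside 1.73% and 2.98% of all tested probes (4.71% in both directions). The median of the members was -0.229 against 0.043 over all probes, and 19 members had an unadjusted p under 0.05 (20.9% of all probes). The called members were 3 plexins, a semaphorin and a Slit. Sema4g, a membrane semaphorin, had log2 signals of -1.92, -1.75 and -2.19 in Naive and -3.15, -3.01 and -3.32 in TBI rats, 2.31-fold lower (-1.21 ± 0.21 SE, limma adjusted p = 0.0115). Slit2, a repulsive cue for Robo receptors, had -1.63, -0.91 and -1.06 in Naive and -2.46, -2.18 and -2.35 in TBI rats (-1.13 ± 0.25 SE, adjusted p = 0.0272). For both genes all TBI arrays lay below all Naive arrays.

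Of the plexins, Plxnb1 had log2 signals of 0.04, 0.10 and -0.29 in Naive rats, 2.25-fold above TBI (-1.17 ± 0.20 SE, limma adjusted p = 0.00957). Plxna3, a receptor for secreted semaphorins, had -4.81, -4.78 and -5.24 in Naive and -6.43, -5.74 and -5.83 in TBI rats (-1.06 ± 0.26 SE, adjusted p = 0.0369). Plxnc1, the receptor of Sema7a, had -1.64, -1.17 and -1.23 in Naive and -2.40, -2.06 and -2.35 in TBI rats (-0.92 ± 0.20 SE, adjusted p = 0.0244). Every TBI array was below every Naive array in each of the 3 plexins. As the called members were picked by their calls, the separation of their arrays adds no support. Quantile normalization called 6 members lower beside 2.56% of all probes (2.99% higher, 5.55% in both directions), namely Sema4g, Plxnb1, Slit2, Plxnc1, Unc5c and Slit3.

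The count against Naive was 3 without TBI 2, 1 without TBI 3, 2 without Naive 2 and 3 without Naive 3, and without the 3 arrays high in choroid plexus genes 1 member, Plxnb1, was called. With normexp none was called (6 at an unadjusted p under 0.05), and Plxna3 turned to 0.20. Against the 1 Naive array on their own slide, the TBI arrays were -0.97 for Sema4g, -1.27 for Slit2, -0.93 for Plxnb1, -1.04 for Plxnc1 and -0.76 for Plxna3 on the log2 scale. With the slide as a block limma called none of the 5 (6 members at an unadjusted p under 0.05). Of 9 tested leukocyte genes 4 were called higher in TBI than in Naive rats (summed signal 1.69 to 7.65 against 0.742 to 1.01), with 7 of the 12 on the array below background in Naive rats. Of 8 tested meningeal and fibroblast genes 1 was called lower (1.1 to 1.16 against 1.8 to 14.1), and of 5 tested dentate gyrus genes 1 (0.483 to 0.973 against 1.56 to 2.17). Choroid plexus genes summed to 1.07 to 4.89 against 3.78 to 81.1, and 0 of 8 were called. Their part in the members' differences was not tested.

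In Sham compared with Naive rats 6 of 60 members were called, 4 higher and 2 lower, beside 6.57% and 1.52% of all tested probes (8.08% in both directions). The members' median was 0.065 against 0.055 over all probes, and 18 members had an unadjusted p under 0.05 (22.7% of all probes). The 4 higher were Epha8 (2.14 ± 0.59 SE, limma adjusted p = 0.0428), Unc5b (2.02 ± 0.39 SE, adjusted p = 0.0109, at least 2.21-fold, since no Naive array was well above background), Sema3c and Epha7. In this session Unc5b entered the test through Sham alone, where it was high, though it also entered through the drug groups. Sema3c, a secreted semaphorin, had log2 signals of -3.43, -3.27 and -3.02 in Naive, -1.67 and -2.04 in Sham and -2.58, -2.50 and -2.25 in TBI rats, with the TBI arrays between the others (1.39 ± 0.32 SE for Sham vs. Naive, adjusted p = 0.021). Epha7, an Eph receptor of dendrites, had -5.01, -5.58 and -5.71 in Naive and -4.18 and -4.18 in Sham rats (1.25 ± 0.36 SE, adjusted p = 0.0496), without overlap.

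The 2 lower in Sham rats were Sema4g, at -3.09 and -2.75 (-0.97 ± 0.24 SE, limma adjusted p = 0.0285), and Plxnc1, at -2.32 and -2.26 (-0.94 ± 0.23 SE, adjusted p = 0.0244). Both were also called lower in TBI than in Naive rats, a comparison that shares the Naive arrays, and their TBI and Sham arrays overlapped. Within the shared slide, the Sham arrays differed from Naive 1 and 2 by 2.33 for Epha8, 1.99 for Unc5b, 1.49 for Sema3c, 1.12 for Epha7, -1.09 for Sema4g and -0.89 for Plxnc1 on the log2 scale, and with the slide as a block limma called none (10 members at an unadjusted p under 0.05). Under quantile normalization 5 members were called, 1 higher (Unc5b) and 4 lower, beside 3.29% and 2.47% of all probes (5.76% in both). The count was 1 without Sham 1, 1 without Sham 2, 2 without Naive 2, 3 without Naive 3, and by limma 0 without the 3 arrays high in choroid plexus genes (12 at an unadjusted p under 0.05) and 0 with normexp (6). Choroid plexus genes summed to 7.18 to 128.0 in Sham and 3.78 to 81.1 in Naive rats, and 2 of 10 oligodendrocyte genes, 2 of 11 neuronal genes and 1 of 9 leukocyte genes were called higher in Sham rats. So were 2 of 8 tested CA field, 1 of 5 tested dentate gyrus, 1 of 9 astrocyte and 1 of 11 microglial genes. Of 7 tested thalamic genes 1 was called lower. Their part was not tested.

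Log2 signals were higher than in TBI rats for most members in all 3 drug groups, and so they were for most probes on the array. Against TBI, limma called 39 of 60 members in TBI+JM6 rats, all higher, beside 69.9% of all tested probes (70.1% in both directions), and the median of the members was 1.076 against 0.995 over all probes. TBI+PMI rats had 30 members called higher, beside 56.7% of probes (median 0.845 against 0.789). TBI+E33 rats had 46, beside 70.2% (70.3% in both directions; median 1.185 against 1.076), and 27 without TBI+E33 2. No member was called lower, where 0.175%, 0.0482% and 0.092% of probes were. The share of members called was 65.0%, 50% and 76.7%, near the share of all probes. There were 29 members called higher in all 3 comparisons, which share the TBI arrays. The share of all probes called higher in all 3 was not counted, and 56.7% to 70.2% were called higher in each. Of the 29, Dcc, Efna4, Epha3, Epha10, Nrp1, Nrp2, Ntn1, Plxna4a, Sema3a and Sema3g are among the members set apart by the filter described next. A probe was tested if all arrays of some group had it well above background, and 13 of the 60 members passed this filter through drug groups alone, where they were well above background, so their differences from TBI are given below as a description, without a test. Of the 47 that passed through a Naive, Sham or TBI group, 26, 20 and 33 were called higher in TBI+JM6, TBI+PMI and TBI+E33 rats, beside 64.5%, 50.3% and 64.1% of the probes that did so.

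Quantile normalization, which gives all arrays one distribution of signals, brings the median over all probes to -0.002 for TBI+JM6, -0.015 for TBI+PMI and -0.003 for TBI+E33 against TBI. The members' medians were then -0.127, -0.166 and -0.071. It called 17 members for TBI+JM6 (9 higher and 8 lower, beside 13.9% and 13.3% of probes, 27.2% in all), 17 for TBI+PMI (8 higher and 9 lower, beside 9.96% and 9.21%, 19.2% in all) and 11 for TBI+E33 (6 higher and 5 lower, beside 10.4% and 10%, 20.4% in all). The direction of a member depended on the scaling, and 28, 34 and 31 of the 60 had opposite signs under the 2 scalings. With normexp the counts were 7, 3 and 3. These counts include members that passed the filter through drug groups alone. Among those that passed the filter through a Naive, Sham or TBI group, 5, 4 and 3 were called higher under quantile normalization. This stands beside 11.3%, 7.14% and 7.64% of the probes that did so. Lower calls among such members were 7, 7 and 4, beside 16.3%, 10.8% and 12.1%. The members named next are from the higher calls. Sema7a and Unc5b were among them in all 3 drug groups, and of the Naive, Sham and TBI groups both passed through Sham alone. Neither was called with normexp in any drug group, where their log2 differences ran from 0.73 for Unc5b in TBI+PMI rats to 1.43 for Sema7a in TBI+JM6 rats.

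Of the semaphorins, Sema3g, a secreted semaphorin known from blood vessels, had log2 signals of -8.24, -7.19 and -8.22 in TBI, -4.96, -5.13 and -4.77 in TBI+PMI, -4.51, -5.0 and -4.31 in TBI+JM6 and -4.45 and -4.23 in TBI+E33 rats. It was not well above background on any array of the first session, which makes it at least 2.02-fold, 2.57-fold and 3.08-fold higher in TBI+PMI, TBI+JM6 and TBI+E33 than in TBI rats. It passed the filter through the drug groups alone, so no test is given. Under quantile normalization its log2 differences were 1.92, 2.05 and 2.06. Sema7a, a GPI-anchored semaphorin of nerve and immune cells, had -6.13, -7.28 and -6.19 in Naive, -4.87 and -5.45 in Sham and -6.70, -5.67 and -7.22 in TBI rats. It had -3.07, -3.48 and -3.71 in TBI+PMI, -3.54, -2.83 and -2.54 in TBI+JM6 and -2.73 and -2.61 in TBI+E33 rats. All 8 drug arrays lay above all 8 others. The share of all probes so placed was not counted, and 56.7% to 70.2% were called higher in each drug group. Sema7a passed the filter through Sham and the drug groups, not through Naive or TBI rats. Only 1 TBI array was well above background, so the differences of Sema7a from TBI rest in part on signals too dim to measure well. Its differences from TBI were 3.11 ± 0.41, 3.56 ± 0.41 and 3.86 ± 0.46 in the same order (SE; limma adjusted p = 8.68e-05, 1.87e-05 and 2.97e-05), and 1.60, 1.91 and 2.12 under quantile normalization.

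Sema3a, the classical repellent among the secreted semaphorins, had -8.20, -8.08 and -7.98 in TBI, -5.41, -5.47 and -4.35 in TBI+PMI and -4.38, -5.30 and -4.60 in TBI+JM6 rats, at least 1.85-fold and 2.31-fold higher in these drug groups, through which alone it passed the filter (1.78 and 1.83 under quantile normalization, with no test given). In TBI+E33 rats, at -5.76 and -4.84, 1 of 2 arrays was well above background and the quantile difference was 1.0.

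Of the semaphorin receptors, Plxna4a (Plxna4 by its current symbol), a partner of neuropilins, had -8.01, -8.21 and -8.17 in TBI, -4.77, -5.09 and -4.93 in TBI+PMI, -5.59, -4.75 and -3.71 in TBI+JM6 and -4.58 and -4.26 in TBI+E33 rats. It was below background on all 8 arrays of the first session and above it on all 8 of the second, at least 2.05-fold, 2.43-fold and 2.92-fold over TBI in TBI+PMI, TBI+JM6 and TBI+E33 rats (1.99, 2.04 and 1.99 under quantile normalization). Nrp2, the neuropilin that prefers Sema3f, had -7.26, -5.93 and -6.54 in TBI, -3.16, -3.13 and -3.64 in TBI+PMI, -3.86, -3.37 and -2.82 in TBI+JM6 and -3.05 and -2.82 in TBI+E33 rats. It was at least 6.21-fold, 6.05-fold and 8.07-fold over TBI (1.79, 1.53 and 1.84 under quantile normalization). Both Plxna4a and Nrp2 passed the filter through the drug groups alone, so no test is given for them. Naive rats were low in Nrp2 too, at -7.71, -5.97 and -5.45, with 2 arrays well above background. Plxna3 had -4.65, -3.79 and -3.84 in TBI+PMI, -3.59, -3.66 and -3.29 in TBI+JM6 and -3.19 and -3.29 in TBI+E33 rats, all above the TBI arrays. Its quantile differences from TBI, 0.83 in TBI+JM6 and 0.96 in TBI+E33 rats, were called, and that in TBI+PMI rats, 0.37, was not (adjusted p = 0.364).

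Of the netrin receptors, Unc5b had -3.05, -3.96 and -3.60 in TBI+PMI, -3.62, -3.11 and -2.50 in TBI+JM6 and -3.13 and -3.10 in TBI+E33 rats, against -6.46, -6.53 and -7.64 in TBI rats. This is at least 5.39-fold, 7.41-fold and 7.22-fold (limma adjusted p = 2.04e-05, 4.71e-06 and 1.29e-05), with quantile differences of 1.94, 2.28 and 2.04. Unc5b passed the filter through Sham and the drug groups, where it was higher than in TBI rats, and its p-values carry this limit. Its Sham arrays, at -5.15 and -4.66, lay between those of TBI and those of the drug groups. Robo1, a Slit receptor, and Efna2 were called higher under both scalings in TBI+JM6 and TBI+PMI rats (quantile differences 0.89 and 1.10 for Robo1, 0.62 and 0.80 for Efna2). In TBI+E33 rats, where neither quantile difference was called, they were 0.82 and 0.39.

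The members called lower under quantile normalization in all 3 drug groups were Plxnb3, Slit3 and Unc5c, and none of them was called lower with the 75th percentile. Plxnb3, a plexin known from oligodendrocytes, had log2 signals of -2.02, -2.11 and -2.20 in TBI and -2.26, -2.59 and -2.63 in TBI+JM6 rats, a difference of -0.38 ± 0.17 (SE, limma adjusted p = 0.0555) with the 75th percentile and -1.39 (adjusted p = 0.00126) under quantile normalization. Slit3, a repulsive cue, was 0.28, 0.33 and 0.48 from TBI in TBI+PMI, TBI+JM6 and TBI+E33 rats with the 75th percentile, the last being called higher, and -0.40, -0.50 and -0.40 under quantile normalization. Unc5c, a repulsive netrin receptor, was at 0.06, 0.23 and 0.30 with the 75th percentile and at -0.71, -0.70 and -0.72 under quantile normalization. The other members called lower under quantile normalization in at least 1 drug group were Efna4, Epha2, Ephb3, Plxnc1, Sema4a, Sema4g and Sema5b. Of these, Efna4 and Sema5b passed the filter through drug groups alone, so their calls are not taken as a test.

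**Figure D3:**
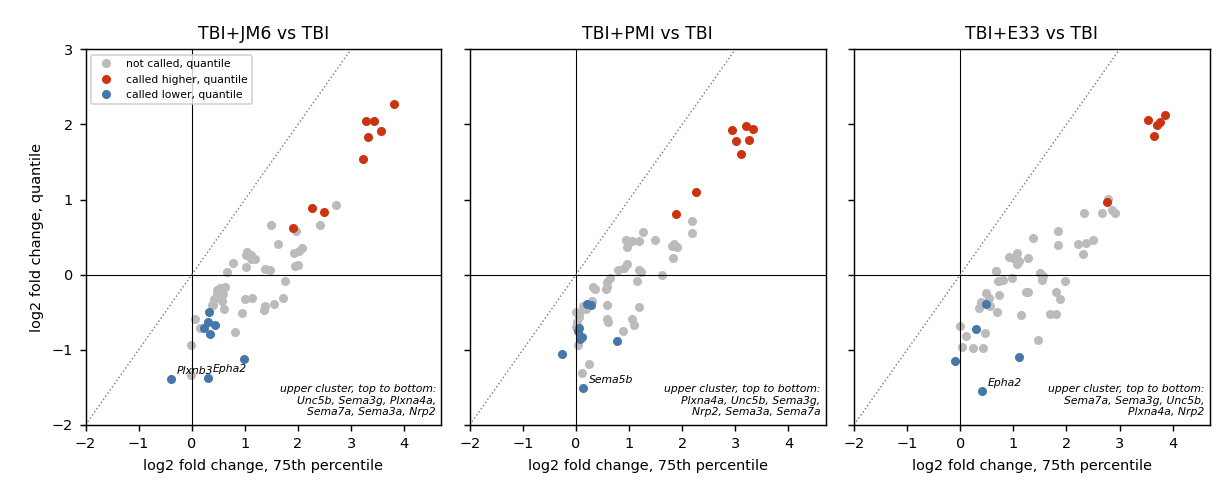
Log2 fold change of each of the 60 tested members against TBI with the 75th percentile scaling (x axis) and with quantile normalization (y axis), a panel for each drug group, coloured by the call under quantile normalization. For the 13 members that passed the filter through drug groups alone the colour is not taken as a test. Nearly all points lie right of 0 on the x axis and all lie below the dotted line of equal values, and Sema3g, Sema7a, Plxna4a, Nrp2 and Unc5b are among those at the upper right in all 3 panels.

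Markers of other cells differed as well. The summed signal of 12 leukocyte genes was 1.69 to 7.65 for TBI, 6.99 to 14.4 for TBI+PMI, 11.8 to 14 for TBI+JM6 and 9.16 to 15.3 for TBI+E33 arrays, and that of 9 endothelial genes was 3.16 to 3.62, 4.49 to 6.38, 4.94 to 6.99 and 6.38 to 6.6. With the 75th percentile 5 of 9 tested leukocyte genes and 7 of 9 endothelial genes were called higher in the TBI+JM6 rats, beside 69.9% of all probes. So were 9 of 11 neuronal, 6 of 8 tested CA field and 3 of 9 astrocyte genes. The marker counts were not split by the groups that let a gene past the filter. With quantile normalization 1 leukocyte and 1 endothelial gene were called higher and 1 endothelial gene lower, beside 13.9% and 13.3% of all probes. In these 4 groups Mpo was below background throughout, Cd2 in TBI, and Tek in TBI and TBI+E33 rats. Their part in the members' differences was not tested.

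Among the drug groups, which share a session, limma called 0 members in the comparison of TBI+JM6 with TBI+PMI, of TBI+JM6 with TBI+E33 and of TBI+PMI with TBI+E33, beside 0.0131%, 0.0175% and 0.11% of all tested probes. At an unadjusted p under 0.05 there were 5, 0 and 12 members, beside 8.84%, 2.81% and 15% of probes, and the methods' t-test with its fold limit passed 6, 1 and 12. The netrin Ntn3 was singled out after its values were seen. Ntn3 had log2 signals of -5.10, -5.68 and -4.89 in TBI+PMI, -4.16, -4.33 and -4.58 in TBI+JM6 and -4.40 and -3.90 in TBI+E33 rats, and all TBI+PMI arrays were below the others (0.87 ± 0.25 SE for TBI+JM6 vs. TBI+PMI, limma adjusted p = 0.344; -1.07 ± 0.28 SE for TBI+PMI vs. TBI+E33, adjusted p = 0.14). Ntn5 was well above background on no TBI+PMI array, on 1 TBI+JM6 array and on both TBI+E33 arrays, the 1 group through which it passed the filter, so no difference or test is given for it. Doses differed between the drugs. No slide held both TBI+PMI and TBI+E33 arrays, so drug and slide cannot be told apart in that comparison. The TBI+JM6 arrays were divided between the slides of the other drugs.

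For 16 members 2 probes were tested, lying 158 to 5366 bases apart on one strand of the rn4 genome, and the probe nearer the start of the gene (upstream) and that nearer its end (downstream) did not move alike. The labelling amplified poly(A) RNA with either of 2 kits, and which rats had which kit is not stated. The last 30 of the 60 bases of the probes of Epha8, Plxnb1 and Sema6d are shown, 5′ to 3′, as the examples whose values follow. Capitals mark AATAAA, a poly(A) signal that lies near the end of a transcript:
Epha8 upstream, chr5:155696407-155696466, minus strand: ggtcccagctgagctgcactcaggggccac
Epha8 downstream, chr5:155694802-155694861, minus strand: agAATAAAttgtctcatctttgcctgcgca
Plxnb1 upstream, chr8:114130658-114130717, plus strand: tgaactctacaagtatatcaacaagtacta
Plxnb1 downstream, chr8:114133447-114133506, plus strand: agcatgtgaactttagtactaatgatagtt
Sema6d upstream, chr3:111945302-111945361, plus strand: tctcacaaagtcatccagtaagagggaaca
Sema6d downstream, chr3:111948097-111948156, plus strand: tctaacatggattctagtctctattctgtt

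AATAAA, searched on the probe strand, was in 2547 of 30367 probes (8.39%) and in 6 of the 81 member probes (7.41%). Among all 2518 genes with 2 tested probes it was in 2.74% of the upstream and 16.5% of the downstream probes, and among the 16 members in 0 and 1. The pairs and this motif were chosen after the values were seen.

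In TBI+JM6 vs. TBI the upstream probe had the greater log2 difference in 12 of 16 members (median difference 0.94) and in 75.3% of 2517 genes (0.559). For TBI+PMI vs. TBI this was so in 12 of 16 members (median difference 0.80) and in 75.2% of 2517 genes (0.486), and for TBI+E33 vs. TBI in 13 of 16 members (median difference 0.97) and in 73.4% of 2515 genes (0.485). The order was turned in TBI vs. Sham, where the upstream probe had the greater value in 5 of 16 members (median difference -0.51) and in 28.4% of 2511 genes (-0.275). Plxnb1 was -1.94 by its upstream and -0.86 by its downstream probe in TBI vs. Sham, and 1.97 and 0.38 in TBI+JM6 vs. TBI. Sema6d, a membrane semaphorin, was -0.75 and 0.27, and 2.35 and 0.40. Both probes of Epha8 were lower in TBI than in Sham rats, -1.67 and -2.28, the upstream one not called (limma adjusted p = 0.0571). Both of Efna2 were called lower, -1.81 and -1.12. Both of Slit2 were lower in TBI than in Naive rats, -1.13 and -1.06, the downstream one not called (limma adjusted p = 0.0979). Plxnc1 was read by its downstream probe, at -0.94 in Sham vs. Naive, where its upstream probe was at 0.21.

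The same measure can be read on each array. Over all genes with 2 probes, the median of the upstream minus the downstream log2 signal was -1.47 to -1.41 on the Naive, -1.42 to -1.24 on the TBI, -1.09 to -1.05 on the Sham and -0.89 to -0.75 on the drug arrays. Over the 16 members it was -3.26 to -2.13, -2.85 to -2.52, -2.22 to -1.93 and -1.46 to -0.98. All drug arrays lay above all arrays of the first session by both measures. Within that session the Sham arrays were the highest over all genes, while over the members Naive 3 lay between them. The part of probe position in the differences of the members was not tested.

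**Figure D4:**
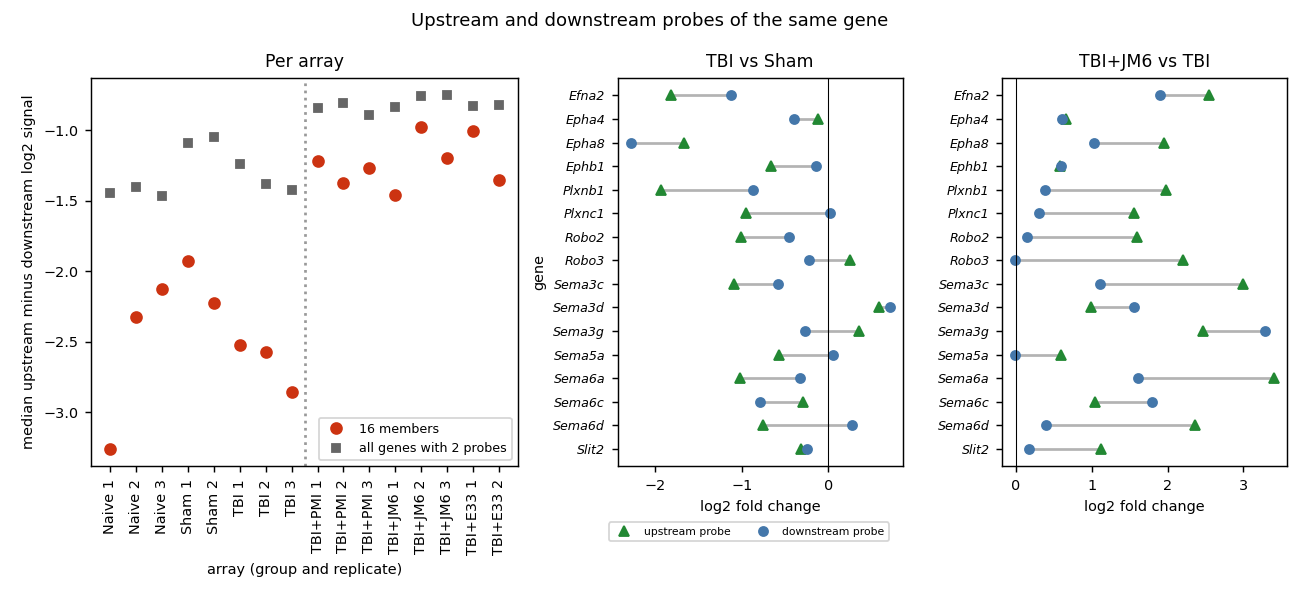
Left, the median over genes of the upstream minus the downstream log2 signal on each array, for the 16 members (circles) and for all genes with 2 tested probes (squares), with a dotted line between the scan sessions. Middle and right, the log2 fold changes of the upstream (triangles) and downstream (circles) probe of each of the 16 members in TBI vs. Sham and TBI+JM6 vs. TBI; the triangles lie left of the circles for 11 genes in the middle panel and right of them for 12 in the right panel.

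Signals from these receptors reach the cytoskeleton through small GTPases and their regulators, and through adaptors, kinases and actin-binding proteins. Of 29 tested genes of the list of small GTPases, their regulators and kinases, 3 were called lower and 0 higher in TBI vs. Sham, beside 6.49% and 2.93% of all tested probes, among them Rnd1, a plexin-binding GTPase (-2.16 ± 0.59 SE, limma adjusted p = 0.0396). In TBI vs. Naive 1 was called higher, Rac1 (0.96 ± 0.21 SE, limma adjusted p = 0.0271), and 0 lower. In Sham vs. Naive 4 were higher and 2 lower, with the kinases Pak2 (1.74 ± 0.25 SE, limma adjusted p = 0.00357) and Pak3 (-0.97 ± 0.23 SE, limma adjusted p = 0.0233) at the ends. Of 25 tested adaptors and effectors, 4 were lower and 1 higher in TBI vs. Sham. They included Cdk5r1, the activator of the kinase Cdk5 (-1.45 ± 0.30 SE, limma adjusted p = 0.0149), and the kinase Fes (1.31 ± 0.38 SE, limma adjusted p = 0.0476). In Sham vs. Naive 3 of them were higher. Of 28 other tested guidance and growth-inhibitory genes, 4 were lower in TBI vs. Sham, 2 lower in TBI vs. Naive, with the reelin gene Reln at -1.20 ± 0.28 SE, limma adjusted p = 0.034, and 2 lower in Sham vs. Naive. Over all probes 2.98% were higher and 1.73% lower in TBI vs. Naive, and 6.57% and 1.52% in Sham vs. Naive. Under quantile normalization the lower calls of the 3 lists in TBI vs. Sham were 1, 2 and 1 in place of 3, 4 and 4, beside 4.25% of all probes, and 0, 0 and 0 were higher.

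Against TBI, 23, 21 and 17 genes of these lists were called higher in TBI+JM6 rats, 16, 16 and 13 in TBI+PMI rats and 25, 22 and 19 in TBI+E33 rats, and none lower. The counts were not split by the groups that let a gene past the filter. They include genes that passed through drug groups alone, such as Ablim1 in TBI+PMI and TBI+E33 rats, so they are a description. Over all probes 69.9%, 56.7% and 70.2% were higher. Under quantile normalization the counts were 10, 4 and 4 higher and 1, 4 and 2 lower in TBI+JM6 rats (beside 13.9% and 13.3% of all probes). They were 6, 4 and 4 higher and 3, 5 and 2 lower in TBI+PMI rats (9.96% and 9.21%), and 8, 3 and 2 higher and 0, 5 and 0 lower in TBI+E33 rats (10.4% and 10%). Rnd1 differed from TBI by 3.90 ± 0.53 SE, limma adjusted p = 5.66e-05, in TBI+JM6 rats, and by 2.68 under quantile normalization. Cdk5r1 differed by 3.14 ± 0.27 SE, limma adjusted p = 3.32e-06, and by 1.86 under quantile normalization.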

How the data were processed

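Hippocampal RNA of 16 rats was amplified from poly(A) RNA, labelled and hybridised to single-colour Agilent rat arrays. The deposited scanner files hold processed signal intensity per spot, background-subtracted by Agilent Feature Extraction 9.5.3.1 per the file headers. The authors also deposited a matrix of normalized values, used here as an alternative. By the methods the authors made these as a linear ratio to the 75th percentile of probes above background, and since its columns share one distribution the arrays had also been equalised.

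Outlier spots and controls were left out, spots of a probe were averaged, and intensities were divided by the array's 75th percentile of probes well above background before log2. A probe was kept if all arrays of some group had it well above background, which left 22827. A model with 6 groups and 10 residual degrees of freedom was fitted with limma 3.58.1 in R 4.3.3, with Benjamini-Hochberg adjustment, and the scripts were tested on simulated data. Tables were made with Python 3.11.15. Of 63 members, 52 had an accession in the RefSeq gene table, 51 under the same symbol. Every array value is given for up to 6 called members with the largest change in each comparison within a session, for up to 6 called in the same direction under both scalings against TBI, and for the brightest member of each family. The members and lists were chosen with earlier results of these data known. Some marker genes are not reported here.

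Alternatives were normexp with an offset of 50, quantile normalization, the percentile over all probes, the authors' matrix, removal of a GC trend, no filter, the methods' t-test (p under 0.05 and over 1.2-fold), the compared groups alone, the replicate number or slide as a block, the mean of all probes and leaving out each rat. Where that left 1 array in a group, it was assumed to vary like the other groups. Against TBI the slide was a random block. Leaving out the 3 arrays high in choroid plexus genes, the probe pairs and the count by the groups that let a probe past the filter were added after the data were seen. The methods state 3 rats a group, and 2 Sham and 2 TBI+E33 arrays were analysed here.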

Additional observations from a re-analysis of the deposited data

How the results depend on the processing

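In the order TBI vs. Sham, TBI vs. Naive and Sham vs. Naive, 8, 5 and 6 members were called, and 0, 0 and 0 with normexp background correction, 0, 0 and 2 with the compared groups fitted alone, 0, 0 and 0 with the slide as a block, 7, 10 and 10 by the methods' t-test and 0, 0 and 0 by it after adjustment (no adjustment: 7, 10 and 10). At an unadjusted p under 0.05 limma with normexp had 5, 6 and 6. Without the 3 arrays high in choroid plexus genes, a setting chosen after seeing the data, the counts were 0, 1 and 0. For TBI vs. Sham the count was 2 with quantile normalization, 2 in the authors' matrix, 5 with the GC trend removed and 4 with no filter on dim probes, and for TBI vs. Naive 3 with a gene's probes averaged. Leaving out each rat gave 0 to 11, 1 to 7 and 1 to 4. In the order TBI+JM6, TBI+PMI and TBI+E33 against TBI, 39, 30 and 46 were called, with 7, 3 and 3 under normexp, 17, 17 and 11 under quantile normalization, 23, 22 and 22 with the percentile over all probes, 17, 16 and 13 in the authors' matrix and, for TBI+E33, 25 by the adjusted t-test. Leaving out each rat gave 34 to 40, 26 to 32 and 27 to 42. Between drugs the t-test passed 6, 1 and 12 and leaving out each rat gave 0 to 0, 0 to 0 and 0 to 0.

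With the replicate number as a block 2, 5 and 4 members were called among Naive, Sham and TBI rats and 40, 33 and 43 against TBI; same-numbered rats correlated by -0.185 to 0.182, so the numbers were not taken to pair rats. Reversals among the named members occurred with normexp alone: Unc5b 0.009, Sema4b 0.33 and Ntn3 0.264 in TBI vs. Sham, Plxna3 0.204 in TBI vs. Naive and Plxna4a -0.106 in TBI+PMI vs. TBI. The cause was not tested. Groups of 2 or 3 arrays and probes near background limit the precision.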
